A study of Rattus norvegicus with 18 samples.

Results

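The miR-221 and miR-222 rows of a small RNA sequencing study of rat heart were taken by name, as each listed row that reads miR-221 or miR-222 once the species prefix and the arm are removed. This gave 4 rows of the 599 listed, rno-miR-221-3p, rno-miR-222-3p, rno-miR-221-5p and rno-miR-222-5p, written below without the prefix. The study held 18 heart libraries in 3 groups of 6: spontaneously hypertensive rats given QDG (labelled QDG), spontaneously hypertensive rats (SHR), which develop high blood pressure with age, and Wistar Kyoto rats (WKY), the normotensive strain used as their control. The design text names NS beside QDG as what animals received and expands neither abbreviation, and the sources used here give no age, sex, dose or duration. Heart tissue was not sorted by cell type, so a miRNA carried by fewer cells and a miRNA present at a lower level per cell cannot be told apart. Between SHR and WKY, strain and blood pressure cannot be told apart either. Between QDG and WKY the treatment differs as well, and cannot be told apart from strain. No blood pressure values were used here. The labels and design text do not say whether WKY rats also received NS.

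miR-221 and miR-222 are a pair of miRNAs cut from neighbouring hairpins that are thought to be made from a common primary transcript. They are best known from blood vessels, where in smooth muscle they promote growth by repressing the cell cycle inhibitor p27 (Cdkn1b), and in endothelium they repress the stem cell factor receptor c-Kit. A hairpin yields a mature miRNA from either arm, named 5p and 3p. One arm is usually loaded into the silencing complex and kept, and the other is mostly degraded. Target choice rests mainly on the seed, bases 2 to 8 of the mature strand.

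The mature sequences are shown because the seeds separate the arms into one shared family and 2 strands with other seeds. They come from RefSeq (GRCr8 build), are written 5′ to 3′ and have the seed in capitals.
miR-221-3p: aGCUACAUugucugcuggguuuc
miR-222-3p: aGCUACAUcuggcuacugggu
miR-221-5p: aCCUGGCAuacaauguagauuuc
miR-222-5p: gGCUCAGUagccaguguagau
The 3p strands of both hairpins carry the same seed, GCUACAU, and no other of the 724 mature rat sequences in the RefSeq table has it. The 3p strands match over their first 8 bases, and over 21 bases compared without gaps from the 5′ end 11 are equal and 10 differ. The differences, with the miR-221-3p base first and positions counted from 1 at the 5′ end, are U9C, G10U, U11G, C12G, U13C, G14U, C15A, U16C, G17U and U20G. The 5p strands have seeds of their own, and the longest run of letters they share, UGUAGAU, lies outside both seeds. The sources used here do not say how reads matching more than one miRNA were assigned, but the 2 abundant rows differ at most positions past the seed.

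The hairpins are shown to place the arms. In each, the capitals mark first the 5p and then the 3p mature strand.
miR-221 hairpin: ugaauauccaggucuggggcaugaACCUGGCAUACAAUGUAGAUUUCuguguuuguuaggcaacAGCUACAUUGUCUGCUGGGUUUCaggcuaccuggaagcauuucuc
miR-222 hairpin: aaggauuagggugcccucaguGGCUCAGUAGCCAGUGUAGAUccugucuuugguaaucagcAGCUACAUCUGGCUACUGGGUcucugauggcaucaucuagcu
In GRCr8 the miR-222 hairpin lies at chrX:6022621-6022723 and the miR-221 hairpin at chrX:6023182-6023290, both on the plus strand, with 458 bases between them. These positions belong to the RefSeq sequences, since the deposited tables carry none. RefSeq also places 2 long noncoding RNA genes, LOC120099382 and LOC120099384, over this stretch.

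Depth was similar: the QDG libraries held 6805472 to 8574447 miRNA reads, the SHR libraries 6420666 to 10169581 and the WKY libraries 6465025 to 9463554. The deposited values are labelled only as normalized read counts. They were taken here as reads per 1000000 (RPM) of a number of reads set for each library. The number this implies was below the miRNA reads in every library, as in WKY replicate 1 (6556077 against 9463554). The values of a library thus sum to more than 1000000, and an RPM value is not a share of its miRNA reads. All 7 heart muscle miRNAs looked for, among them miR-1-3p, miR-133a-3p and miR-208a-3p, were detected, and their summed level was 490772 to 581786 RPM in QDG, 508888 to 592229 RPM in SHR and 504675 to 623872 RPM in WKY. Of the 7, miR-1-3p and miR-208b-3p were higher than in WKY in SHR (log2 0.74 and 0.89) and in QDG (0.70 and 0.72). Of all 410 miRNAs tested, 23.2% and 17.8% were called in those comparisons. The rest of the 7 were lower than in WKY and not called. In SHR their log2 changes were -0.01 (miR-133a-3p), -0.33 (miR-133b-3p), -0.12 (miR-1b), -0.16 (miR-208a-3p) and -0.19 (miR-499-5p). In QDG they were -0.07, -0.21, -0.14, -0.03 and -0.13, in the same order. The median of the 7 was -0.12 in SHR and -0.07 in QDG. SHR replicate 5 stood apart on the second principal component of the 410 miRNAs and WKY replicate 1 on the third. Differences of the cluster's rows or ratios that moved by more than 1.5 times, lost their call or turned their sign without either are given with and without it.

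The 3p strands carried nearly all reads of the cluster. miR-221-3p averaged 426 RPM over the 18 libraries and ranked 93 of 599 rows, miR-222-3p averaged 90.0 RPM (rank 154), miR-221-5p 17.4 RPM (rank 215) and miR-222-5p 0.198 RPM (rank 483). Read numbers of different miRNAs also depend on how well each sequence is ligated, so these ranks order reads and not molecules. All 4 rows together made up 0.0315 to 0.0462% of miRNA reads in QDG libraries, 0.0366 to 0.0594% in SHR libraries and 0.0253 to 0.0389% in WKY libraries.

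Behind each library's value stood 1532 to 3782 reads for miR-221-3p, 279 to 760 for miR-222-3p and 60 to 134 for miR-221-5p. miR-222-5p had at most 3 reads in any library and none in 7 of 18. At 60 reads counting error alone is 12.9% of the value, so the miR-221-5p values are the least precise of the 3 rows tested. Intervals and limits of this kind cover counting error only, as reads without molecular identifiers can be copies of one another.

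miR-221-3p, the more abundant guide strand, was at 371, 444 and 522 RPM in QDG hearts (lowest, median and highest of 6), at 404, 441 and 661 RPM in SHR hearts and at 291, 365 and 438 RPM in WKY hearts. In SHR, 5 of the 6 libraries lay in a narrow band up to 446 RPM and SHR replicate 5 lay far above it, while 5 of the 6 WKY libraries were below the lowest SHR library and WKY replicate 4 overlapped the SHR range. Of the QDG libraries, 4 of 6 were above every WKY library.

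miR-222-3p, which carries the same seed, was at 57.6, 97.1 and 124 RPM in QDG hearts, at 69.5, 94.8 and 132 RPM in SHR hearts and at 56.0, 73.2 and 109 RPM in WKY hearts. The 3 groups overlapped over most of their range, and 1 SHR library and 1 QDG library exceeded the highest WKY library.

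miR-221-5p, the minor strand of its hairpin, was at 12.4, 19.8 and 21.4 RPM in QDG hearts, at 15.1, 16.2 and 23.4 RPM in SHR hearts and at 13.4, 16.1 and 20.7 RPM in WKY hearts. The lowest of all 18 values was in a QDG library and the highest in an SHR library. The groups overlapped throughout.

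miR-222-5p, the minor strand of the miR-222 hairpin, had 10 reads in all in QDG libraries, 7 in SHR libraries and 3 in WKY libraries, and 5, 4 and 2 of 6 libraries had a read. A count of 0 allows up to 3 reads. Across all 18 libraries, with or without a read, 3 reads equal 0.405 to 0.674 RPM, and no library exceeded 3 reads. No difference between groups was tested for this row, which fell below the minimum of 1 RPM in 6 libraries set for testing.

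**Figure D1:**
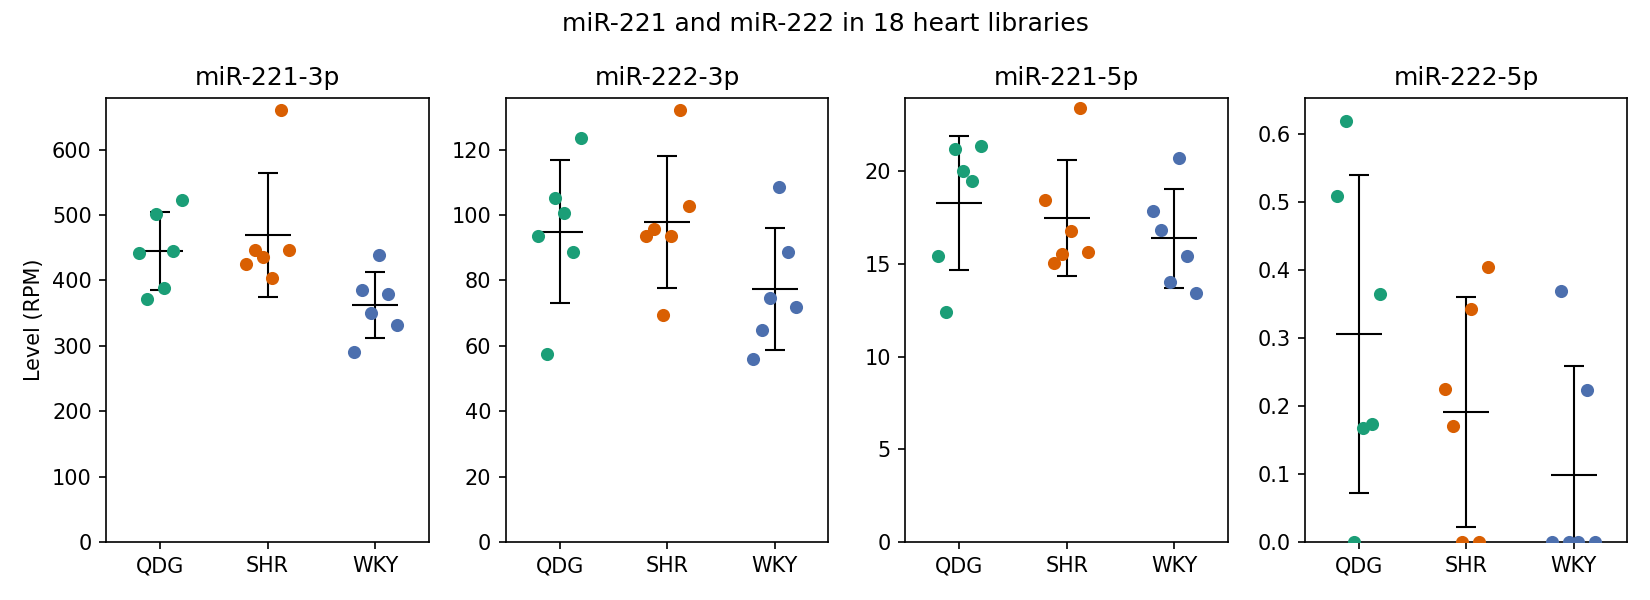
Level in RPM (vertical axes, from 0, a scale per panel) of each of the 4 rows in the 6 QDG, 6 SHR and 6 WKY libraries. Points are libraries and black bars the mean ± SD; SHR replicate 5, at 661 RPM, is the highest miR-221-3p value, and miR-222-5p stays below 0.62 RPM.

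Within each group the same library was highest for all 3 abundant rows: replicate 6 in QDG, replicate 5 in SHR and replicate 4 in WKY. QDG replicate 2 was lowest in its group for all 3 rows, while the lowest SHR library differed between rows, and WKY replicate 1 was lowest for both 3p strands. The levels of miR-221-3p and miR-222-3p correlated with r = 0.81 (Pearson, log2(RPM + 1), 18 libraries), 0.77 after each group's mean was subtracted and 0.78 without SHR replicate 5. For miR-221-3p and miR-221-5p, the 2 arms of one hairpin, r was 0.62, 0.64 with group means subtracted and 0.49 without SHR replicate 5. For miR-222-3p and miR-221-5p it was 0.68, 0.68 and 0.61. These are descriptions: the points share each library's scaling factor, and the 5p row adds counting error.

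The comparison of SHR with WKY asks whether the cluster differs in the heart of the hypertensive strain. miR-221-3p was higher in SHR, at 469 ± 95 RPM against 363 ± 50.6 RPM in WKY (SD, n = 6 each), a log2 change of 0.36 ± 0.12 (SE; 95% interval 0.12 to 0.60; limma adjusted p = 0.0246). All 6 SHR libraries were above the WKY mean. The other seed partner, miR-222-3p, averaged 97.9 ± 20.2 RPM in SHR and 77.4 ± 18.8 RPM in WKY (SD, n = 6 each). Its log2 change had nearly the same size, 0.34 ± 0.17 (SE; 95% interval -0.01 to 0.69), with more spread, and did not pass the test (limma adjusted p = 0.154, 5 of 6 SHR libraries above the WKY mean). It passed under RLE scaling (0.42, limma adjusted p = 0.0430), in DESeq2 (0.43, adjusted p = 0.0265) and without WKY replicate 4 (0.45, limma adjusted p = 0.0440). miR-221-5p averaged 17.5 ± 3.15 RPM in SHR and 16.4 ± 2.69 RPM in WKY (SD, n = 6 each), a log2 change of 0.09 ± 0.15 (limma adjusted p = 0.725, 3 of 6 libraries), which was 0.00339 without SHR replicate 5.

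One of the 3 tested rows was thus called, and among all 410 tested miRNAs 23.2% were called in this comparison, 8.05% as higher and 15.1% as lower (33 and 62, against 46 and 47 under RLE scaling and 52 and 44 in DESeq2). By unadjusted p, miR-221-3p ranked 82 of 410, near the end of the 95 called. The median log2 change of the 3 rows was 0.34, against -0.07 over all 410 miRNAs. The libraries did not overlap between groups for 10.2% of the 410 miRNAs, and for none of these 3 rows.

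With no SHR or WKY library left out, the miR-221-3p call passed in each of the 14 other settings run (log2 change 0.36 to 0.45, adjusted p = 0.000182 to 0.0460), among them TMM scaling (0.41, limma adjusted p = 0.00292), RLE scaling (0.44, limma adjusted p = 0.00165), edgeR (0.42, adjusted p = 0.00362) and DESeq2 (0.45, adjusted p = 0.000182). With 1 library left out, in the limma fit on the authors' scaling, it passed in 9 of 12 cases. It was lost without SHR replicate 5 (log2 change 0.26, limma adjusted p = 0.0900), without WKY replicate 1 (0.30, limma adjusted p = 0.0590) or without WKY replicate 6 (0.34, limma adjusted p = 0.0593). Without SHR replicate 5 and WKY replicate 1 together, a choice made after seeing the data, it was 0.20 (limma adjusted p = 0.159). The direction held in each of these fits.

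**Figure D2:**
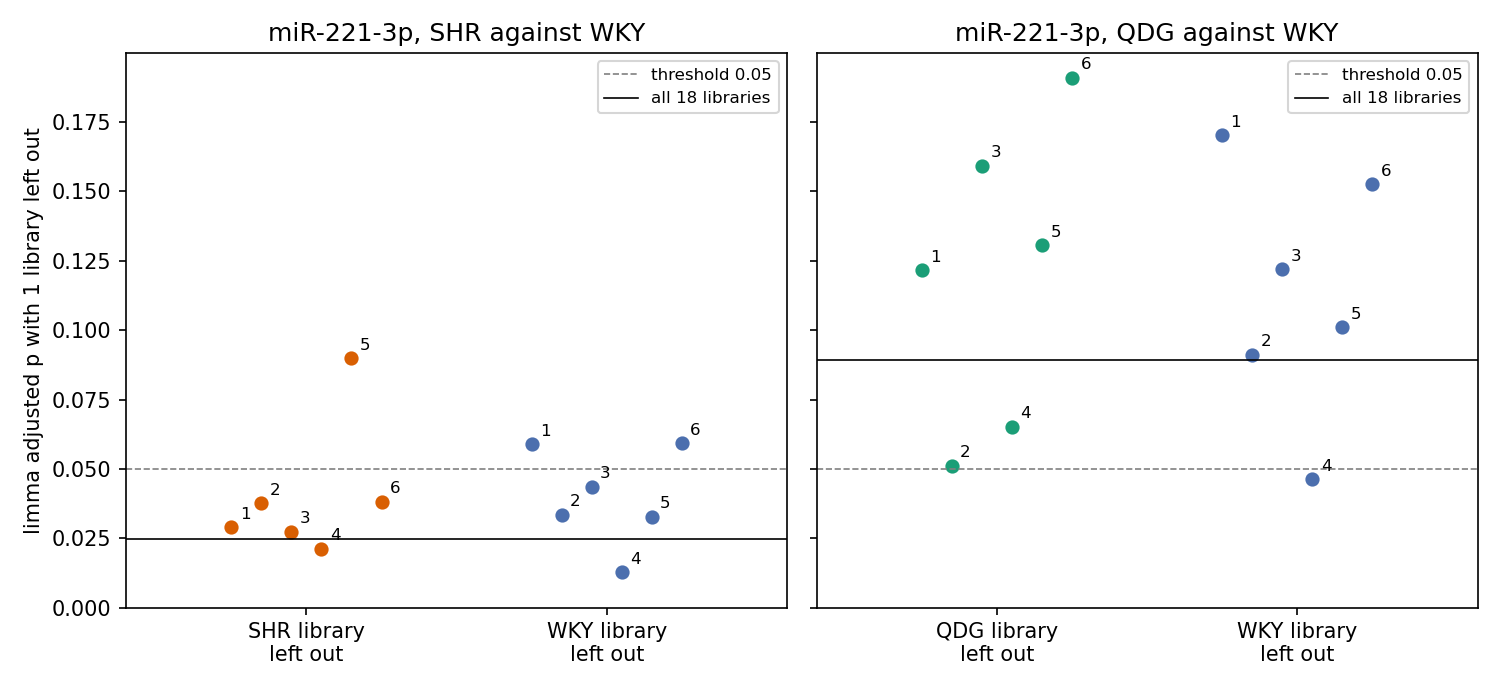
Adjusted p of miR-221-3p (vertical axis, limma) with 1 library left out at a time, for SHR against WKY and QDG against WKY. Each point is labelled with the replicate left out, the solid line is the value with all 18 libraries and the dashed line the 0.05 threshold; for SHR against WKY 3 of 12 points lie above the threshold, the highest without SHR replicate 5 (0.0900).

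The comparison of QDG with WKY sets the treated hypertensive rats against the same 6 WKY libraries, so it is not independent of the one above. miR-221-3p was at 445 ± 59.8 RPM in QDG against 363 ± 50.6 RPM in WKY (SD, n = 6 each). Its log2 change of 0.29 ± 0.12 (SE; 95% interval 0.05 to 0.54) missed the threshold after adjustment (limma adjusted p = 0.0891), although 6 of 6 QDG libraries were above the WKY mean. It passed under TMM and RLE scaling, under scaling that omitted the 10 most abundant miRNAs, in edgeR, DESeq2 and limma-voom (adjusted p = 0.00876 to 0.0371), and without WKY replicate 4 (0.35, limma adjusted p = 0.0463). miR-222-3p averaged 94.9 ± 21.9 RPM in QDG and 77.4 ± 18.8 RPM in WKY (SD, n = 6 each), a log2 change of 0.29 ± 0.17 (limma adjusted p = 0.260, 5 of 6 libraries). miR-221-5p averaged 18.3 ± 3.62 RPM in QDG and 16.4 ± 2.69 RPM in WKY (SD, n = 6 each), a log2 change of 0.14 ± 0.15 (limma adjusted p = 0.558, 4 of 6 libraries).

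In the limma fit on the authors' scaling with all 18 libraries, none of the 3 rows was called in this comparison. That fit called 17.8% of the 410 miRNAs, 7.32% as higher and 10.5% as lower (30 and 43, against 42 and 40 under RLE scaling and 46 and 41 in DESeq2). Of the 3, miR-221-3p had an unadjusted limma p of 0.0191, and the unadjusted p of the other 2 was 0.102 for miR-222-3p and 0.335 for miR-221-5p. The median log2 change of the 3 rows was 0.29, against -0.06 over all 410 miRNAs.

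The comparison of QDG with SHR asks whether treatment changed the cluster within the hypertensive strain. miR-221-3p was at 445 ± 59.8 RPM in QDG and 469 ± 95 RPM in SHR (SD, n = 6 each), a log2 change of -0.07 ± 0.12 (SE; 95% interval -0.31 to 0.18; limma adjusted p = 0.983). The sign turned without SHR replicate 5 (0.04). miR-222-3p differed by -0.06 ± 0.17 (95% interval -0.40 to 0.29), with 3 of 6 QDG libraries above the SHR mean, and its sign also turned without SHR replicate 5 (0.03) or QDG replicate 2 (0.08). miR-221-5p differed by 0.06 ± 0.15 (95% interval -0.24 to 0.35), and by 0.14 without SHR replicate 5. All 3 intervals include 0 and span differences in both directions. Limma, edgeR, DESeq2 and limma-voom each called 0% of the 410 miRNAs here, and 15 had an unadjusted limma p under 0.05.

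**Figure D3:**
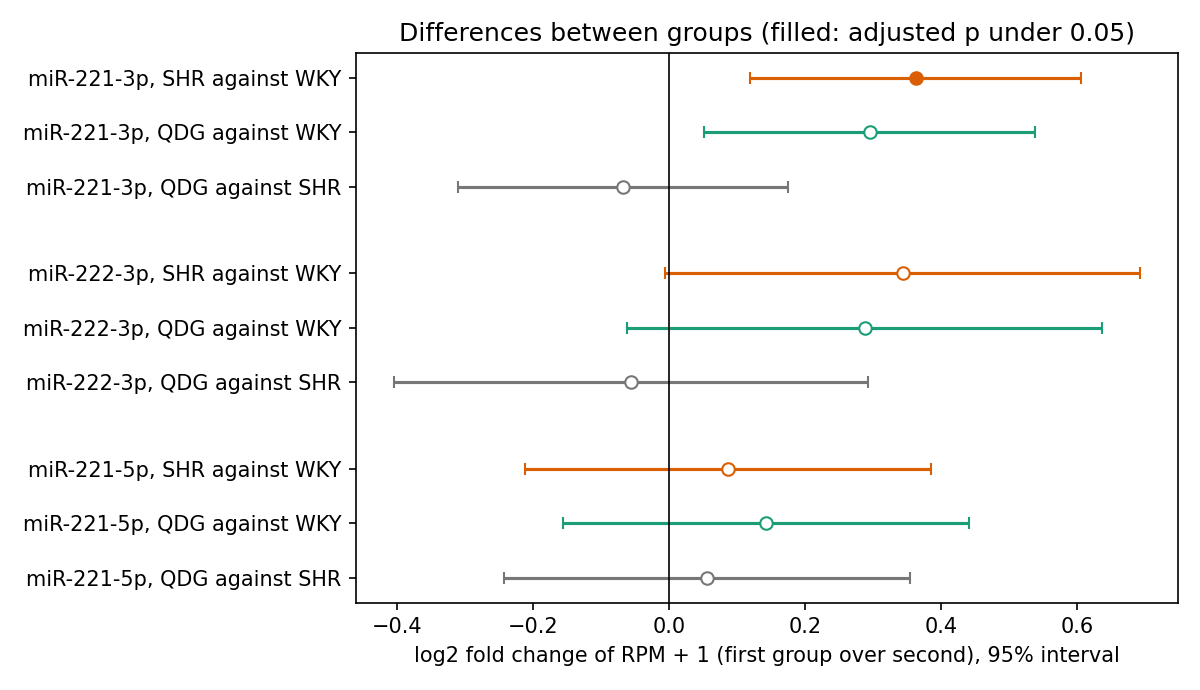
Log2 fold change of RPM + 1 (horizontal axis, first group over second) of the 3 tested rows in each comparison, with the 95% interval from limma. The filled point marks the 1 value with an adjusted p under 0.05, miR-221-3p in SHR against WKY (0.36); the QDG against SHR values lie between -0.07 and 0.06.

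Ratios within a library do not depend on the scaling and show whether members moved by different amounts. miR-222-3p stood at 21.2 ± 3.53% of miR-221-3p in QDG, 20.9 ± 2.70% in SHR and 21.2 ± 2.88% in WKY (SD, n = 6 each), and at 15.5 to 25.9% over all 18 libraries. The difference in the log2 ratio was -0.02 ± 0.12 for SHR against WKY (SE, exact permutation p = 0.890), -0.00476 ± 0.13 for QDG against WKY (exact permutation p = 0.974) and 0.01 ± 0.13 for QDG against SHR (exact permutation p = 0.937). With all 6 ratio tests adjusted together each of these p-values was 0.974. Without SHR replicate 5 the difference was -0.00413 for SHR against WKY and -0.000627 for QDG against SHR, and without WKY replicate 1 it was -0.0408 for SHR against WKY and -0.0301 for QDG against WKY.

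For the strands of the miR-221 hairpin, miR-221-5p stood at 4.11 ± 0.661% of miR-221-3p in QDG, 3.75 ± 0.399% in SHR and 4.56 ± 0.820% in WKY (SD, n = 6 each). The log2 ratio was lower in SHR than in WKY by 0.27, that is -0.27 ± 0.11 (SE, exact permutation p = 0.0281, two-sided), which did not pass after adjustment over the 6 ratio tests (p = 0.169, exact permutation). Without WKY replicate 1, whose ratio of 6.14% was the highest of all, the difference was -0.18. QDG differed from WKY by -0.15 ± 0.13 (exact permutation p = 0.312; -0.06 without WKY replicate 1) and from SHR by 0.13 ± 0.11 (exact permutation p = 0.344), each 0.688 after adjustment.

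Summed over the libraries of a group, the 5p strand held 600 of 15113 miR-221 reads in QDG (3.97%, exact Clopper-Pearson 95% interval 3.66 to 4.29%), 597 of 16752 in SHR (3.56%, 3.29 to 3.86%) and 524 of 11984 in WKY (4.37%, 4.01 to 4.75%). For miR-222 the 5p strand held 10 of 3127 reads in QDG (0.320%, 0.153 to 0.587%), 7 of 3400 in SHR (0.206%, 0.0828 to 0.424%) and 3 of 2424 in WKY (0.124%, 0.0255 to 0.361%). These intervals pool reads and leave out the spread between libraries, so they do not serve to compare groups. By library, the miR-221 5p share was 3.23 to 4.91% in QDG, 3.26 to 4.16% in SHR and 3.85 to 5.78% in WKY. Over all libraries the 5p share was 3.92% for miR-221 and 0.223% for miR-222, and in all 18 libraries the share was higher for miR-221.

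**Figure D4:**
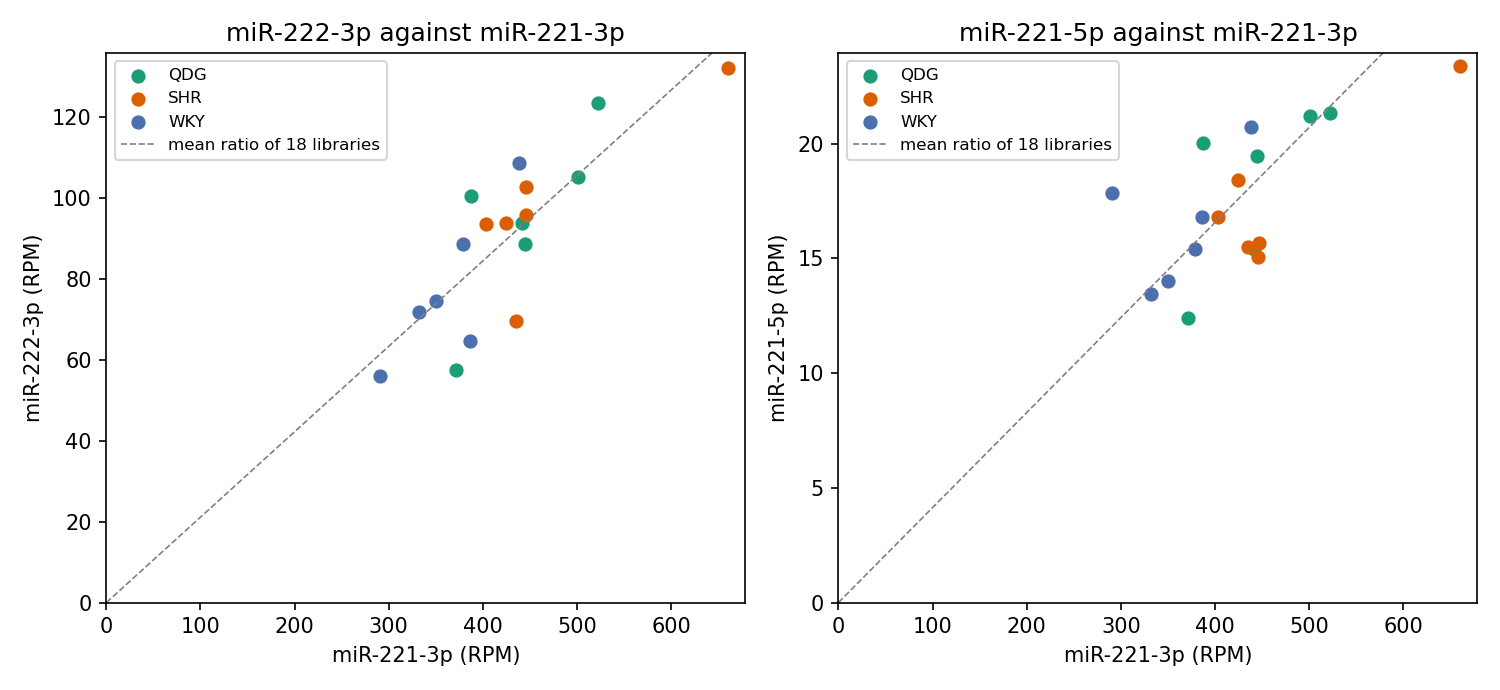
Level of miR-222-3p (left) and miR-221-5p (right) against that of miR-221-3p in the 18 libraries, all in RPM on linear axes from 0 and coloured by group. The dashed line is the mean ratio over all libraries; points of the 3 groups lie along it on the left, and WKY replicate 1 (ratio 6.14%) lies above it on the right.

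Among the 248 other miRNAs averaging at least 10 RPM, those most like miR-221-3p over the 18 libraries were miR-132-5p (Pearson r = 0.91), miR-21-5p (0.84), miR-223-3p (0.82), miR-222-3p (0.81) and miR-199a-5p (0.81). With group means subtracted these values were 0.87, 0.75, 0.83, 0.77 and 0.85. The miRNAs most like miR-222-3p were miR-146b-5p (r = 0.88), miR-223-3p (0.87), miR-221-3p (0.81), miR-199a-5p (0.80) and miR-214-3p (0.80). For miR-221-5p they were miR-222-3p and miR-31a-5p (0.68 each), miR-199a-5p and miR-488-3p (0.67 each) and miR-365-3p (0.66). miR-222-3p thus ranked 4 of 248 for miR-221-3p, and miR-221-3p ranked 3 of 248 for miR-222-3p. The median r over the 248 was 0.16 for miR-221-3p, 0.22 for miR-222-3p and 0.07 for miR-221-5p. miR-21-5p and miR-199a-5p are abundant in fibroblasts, miR-223-3p in myeloid cells and platelets, and miR-146b-5p in immune cells. SHR replicate 5 weighed on several of these values: without it, miR-199a-5p had r = 0.69 with miR-221-3p, and miR-21-5p and miR-223-3p 0.74 each. miR-132-5p had 0.90 with miR-221-3p without it. Those named for miR-222-3p then had 0.76 to 0.85, and those for miR-221-5p 0.56 to 0.66.

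Markers of the cell types in which the cluster is known were followed beside it. Of the 4 smooth muscle miRNAs, the arms of miR-143 and miR-145, 0 of 4 were called in any comparison by limma, edgeR, DESeq2 or limma-voom, and 1, miR-143-3p in SHR against WKY, had an unadjusted limma p under 0.05. Their summed level was 53819 to 75150 RPM in QDG, 44421 to 65776 RPM in SHR and 50015 to 75140 RPM in WKY. The most abundant, miR-143-3p, averaged 50452 RPM in SHR and 59615 RPM in WKY (log2 -0.24 ± 0.11, limma adjusted p = 0.118).

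Of 6 listed endothelial miRNAs, 1 rose in SHR and in QDG against WKY, miR-130a-3p (log2 0.35 and 0.36, limma adjusted p = 0.0158 and 0.0145), beside 23.2% and 17.8% called of all 410. miR-92a-3p was lower in both (-0.27 and -0.24) at an unadjusted limma p under 0.05, but was not called. miR-296-5p (-0.36 and -0.30) and miR-126a-5p (-0.13 and -0.21) were also lower. miR-10a-5p (0.47 and 0.43) and miR-126a-3p (0.09 and 0.12) were higher, and limma called none of these. The median of the 6 was -0.02 in SHR and -0.05 in QDG. The summed endothelial level was 119268 to 133595 RPM in QDG, 115915 to 130302 RPM in SHR and 91642 to 128528 RPM in WKY. miR-126a-3p, the main endothelial miRNA, differed between SHR and WKY by 0.09 ± 0.07 and did not pass in limma (adjusted p = 0.406), edgeR or limma-voom, while DESeq2 called it.

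The 4 miRNAs listed for fibroblasts and stroma, miR-21-5p, miR-199a-5p, miR-199a-3p and miR-214-3p, summed to 34754 to 39095 RPM in QDG, 30529 to 52244 RPM in SHR and 27461 to 32170 RPM in WKY, so that the QDG and WKY sums did not overlap. Taken singly, 8.05% of all 410 miRNAs had QDG and WKY libraries that did not overlap. Most of each sum was miR-21-5p, at 23380 RPM in QDG and 17299 RPM in WKY. The other 3 had log2 changes of 0.01 (miR-199a-3p), 0.14 (miR-199a-5p) and 0.07 (miR-214-3p) in QDG against WKY, none of them called. In SHR against WKY these 3 were at 0.03, 0.13 and 0.08, in the same order, and not called. SHR replicate 5, the library with the most miR-221-3p, also had the highest stromal sum of all 18. It ranked 6 of 18 for the smooth muscle sum, 10 for red blood cells, 13 for endothelium, 15 for leukocytes and 16 for heart muscle. WKY replicate 1, the library with the least miR-221-3p, ranked 17 of 18 for the stromal sum and 18 for the endothelial and red blood cell sums. It ranked 12 for the smooth muscle and leukocyte sums and 1 for the heart muscle sum. One of the 4 stromal miRNAs, miR-21-5p, rose in SHR against WKY (log2 0.42 ± 0.11, limma adjusted p = 0.00513) and in QDG against WKY (0.43 ± 0.11, limma adjusted p = 0.00436), so 1 of 4 was called beside 23.2% and 17.8% of all 410. The part of these markers in the miR-221-3p values was not tested.

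Of 6 leukocyte miRNAs, miR-155-5p rose in SHR and in QDG against WKY (log2 0.48 and 0.41, limma adjusted p = 0.0128 and 0.0422) and miR-142-3p in QDG against WKY (0.38, limma adjusted p = 0.0422), which made 1 and 2 of 6 called beside 23.2% and 17.8% of all 410. miR-150-5p (-0.24 and -0.27) and miR-146a-5p (-0.29 and -0.26) were lower in both, each at an unadjusted limma p under 0.05 and not called. miR-142-5p, the other arm of the miR-142 hairpin, was at -0.13 in SHR and 0.01 in QDG. The median of the 6 was 0.03 in SHR and 0.05 in QDG. miR-223-3p, among those most like both 3p strands, had a log2 change of 0.22 in SHR against WKY that limma (adjusted p = 0.248), edgeR and limma-voom did not call and DESeq2 did. The summed leukocyte level, made up mostly of miR-146a-5p, was 5124 to 7754 RPM in QDG, 6028 to 7167 RPM in SHR and 6464 to 9319 RPM in WKY. miR-146a-5p itself averaged 5111 RPM in SHR and 6301 RPM in WKY (log2 -0.29, limma adjusted p = 0.0698). Of 4 red blood cell miRNAs 0 were called in any comparison by limma or the 3 other tools, 0 had an unadjusted limma p under 0.05, and they summed to 4261 to 5727 RPM in QDG, 4373 to 6058 RPM in SHR and 3760 to 5778 RPM in WKY. None of the listed markers was at 0 in all libraries.

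Of 15 listed miRNAs reported, beside miR-221 and miR-222, to promote or restrain growth of vascular smooth muscle, 4 rose and 1 fell in SHR against WKY (median log2 change 0.21, against -0.07 over all 410), where 23.2% of all 410 were called, 8.05% as higher and 15.1% as lower. The 4 were miR-34a-5p, a target of p53 (1.02 ± 0.10, limma adjusted p = 1.09e-08), miR-1-3p of muscle (0.74 ± 0.08, limma adjusted p = 3.34e-08), miR-132-3p, which responds to the factor CREB (0.70 ± 0.19, limma adjusted p = 0.00684), and miR-21-5p. let-7d-5p fell (-0.44 ± 0.09, limma adjusted p = 0.000326). Each of these 5 also passed in QDG against WKY with the same sign (median of the list 0.11, 17.8% of all 410 called), and 0 of 15 passed in QDG against SHR in any of the 4 tools (0 at an unadjusted limma p under 0.05). In both comparisons with WKY, edgeR, DESeq2 and limma-voom also called miR-24-3p (0.21 and 0.21, limma adjusted p = 0.118 and 0.126), and DESeq2 called miR-21-3p (0.51 and 0.58, limma adjusted p = 0.126 and 0.0928). miR-143-3p (-0.24), miR-146a-5p (-0.29) and miR-26a-5p (-0.19) were lower in SHR against WKY at an unadjusted limma p under 0.05. None of the 4 tools called them, and miR-26a-5p had a limma adjusted p of 0.0524. The rest of the list was at -0.24 (miR-145-5p), -0.01 (miR-133a-3p), 0.03 (miR-195-5p), 0.25 (miR-31a-5p) and 0.47 (miR-10a-5p). The list mixes miRNAs of both actions, so its median gives no direction of growth. The log2 change of miR-221-3p in SHR against WKY was 0.36.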

How the data were processed

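Per the labels' protocols, small RNA libraries were made from 1 µg of heart total RNA with a NEBNext kit. FastQC, TopHat2 and limma are named, per the submitters' processing notes. For genome build and miRNA annotation, the sources used here give nothing. The deposited signal is a normalized read count per mature miRNA, per the file headers. Within 0.01 of a read, 10782 of 10782 values were whole multiples of 1 step per library, so reads were recovered. No 2 libraries were identical.

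The 410 of 599 miRNAs that reached 1 RPM in 6 or more libraries were tested with limma 3.58.1 (R 4.3.3) on log2(RPM + 1), all 18 libraries, trend and robust moderation, no covariate, Benjamini-Hochberg threshold 0.05. A fold change on this scale understates that of scarce miRNAs. Ratios were set against each other by exact permutation (two-sided, 6 against 6 libraries), whose smallest p is 0.00216, adjusted over 6 tests. edgeR 4.0.16, DESeq2 1.42.0 and limma-voom on recovered reads, other scalings, pseudocounts and filters, a replicate block and leaving out libraries were alternatives. On the recovered reads edgeR called 90 miRNAs in SHR against WKY, 0 in QDG against SHR and 84 in QDG against WKY. The limma fit was also tested on simulated data, in which no library was set apart as SHR replicate 5 and WKY replicate 1 were.

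Members and lists were chosen with earlier results of these data known. The values of all 4 rows are given, with the 5 miRNAs of highest Pearson r for each tested row, and for marker lists the called members and the most abundant ones. Library titles gave group and replicate. The labels do not say that each library is a separate animal beyond the stated 6 per group, and if some are not, p-values measure only the spread between these libraries. Of the 599 listed names, 543 matched a RefSeq mature sequence.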

Additional observations from a re-analysis of the deposited data

Results flagged for a closer look

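SHR replicate 5 had 661 RPM of miR-221-3p, while the other 5 SHR libraries had 404 to 446 RPM, and its gap to the nearest was 0.833 of the group's range. WKY replicate 1 had miR-221-5p at 6.14% of miR-221-3p, while the other 5 WKY libraries had 4.01 to 4.73%, with a gap of 0.662 of the range. Of 15 groups of 6 values checked in this way 2 stood out, and chance gives about 1 in 20.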

How the results depend on the processing

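Of the miR-221-3p, miR-222-3p and miR-221-5p values, those that changed their call or sign were as follows. For SHR against WKY, miR-221-3p ranged from 0.26 to 0.42 with 1 library left out and was 0.20 without SHR replicate 5 and WKY replicate 1 together, and miR-222-3p passed under RLE scaling (0.42) and in DESeq2 (0.43) and ranged from 0.25 to 0.45 with 1 library left out, passing only without WKY replicate 4. For QDG against WKY, miR-221-3p passed under TMM (0.32), RLE (0.34) and scaling without the 10 most abundant miRNAs (0.30), and in edgeR (0.32), DESeq2 (0.34) and limma-voom (0.32), and ranged from 0.23 to 0.35 with 1 library left out. For QDG against SHR, with 1 library left out, miR-221-3p ranged from -0.116 to 0.0353 and miR-222-3p from -0.148 to 0.0790, and without the named pair of libraries they were 0.0353 and 0.0346. The log2 ratio of miR-222-3p to miR-221-3p, near 0 in each comparison, ranged with 1 library left out from -0.0806 to 0.0606 (SHR against WKY), -0.0699 to 0.0819 (QDG against WKY) and -0.0653 to 0.0973 (QDG against SHR, -0.000627 without the pair). The cause of these shifts was not tested. miRNAs called numbered 65 to 106 (SHR against WKY), 57 to 87 (QDG against WKY) and 0 under every alternative run (QDG against SHR). The deviations of same-numbered libraries correlated with r from -0.17 to 0.23 in SHR against WKY, -0.13 to 0.12 in QDG against SHR and 0.004 to 0.20 in QDG against WKY, where 4 of 6 were over 0.1 and 1 of 6 was highest with its own number. Not every pair was over 0.1 in any comparison, so the numbers were not taken to pair the libraries. With the replicate block miR-221-3p in SHR against WKY had 0.36 (limma adjusted p = 0.0283), with no call of the 3 rows changed and 93 miRNAs called. Depth limits miR-222-5p and, through counting error, miR-221-5p.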
